A study of Mus musculus with 8 samples.

Results

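The proteasome genes described here are the rows of the deposited gene table whose symbol is Psm, a letter from a to g and a number. The 3 interferon-inducible catalytic subunits Psmb8, Psmb9 and Psmb10 and pseudogene copies with -ps in the name were left out, and 45 of 55801 genes remained. Of these, 43 had a mean of at least 1 TPM, a transcript level per gene length that is scaled to the same total in every sample, and were among the 12189 genes tested. The members not tested were Psma8, a germ cell form of an alpha subunit, with a mean of 0.965 TPM, and Psmb11, the thymus form of a catalytic subunit, which was above 0 in 1 sample alone at 0.02 TPM.

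RNA was measured by sequencing of peritoneal macrophages that thioglycollate had drawn into the abdominal cavity of male C57BL/6 mice aged 6 to 8 weeks, in 4 groups of 2 samples. NC received the vehicle, and LPS received the vehicle and then the bacterial cell wall component LPS at 100 ng/ml for 4 h. C498 received the small molecule C498 at 15 µM, and C498+LPS received C498 at 15 µM for 0.5 h before the same LPS. C498 is studied as an inhibitor of JAK/STAT and NFκB signaling. The labels do not say whether replicates came from separate mice or cultures, so p-values measure only the spread between these samples, which may be technical.

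The proteasome degrades proteins that carry ubiquitin chains. Its barrel, the 20S core, stacks rings of alpha subunits, which gate the entrance, around rings of beta subunits, which hold the active sites, and the 19S particle at its end recognizes, unfolds and deubiquitinates substrates with a base and a lid. In macrophages that receive inflammatory signals, the immunoproteasome subunits can replace the constitutive catalytic ones, and the activator PA28 can take the place of the 19S particle in antigen processing.

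By these roles the members were 8 alpha ring genes (7 tested), 8 beta ring genes (7 tested), 6 ATPases of the 19S base, 3 other base subunits, 8 lid subunits, 7 assembly chaperones, and 5 activators with an inhibitor. Together the tested members took between 0.709% and 0.885% of all TPM in a sample. TPM divides reads by gene length, so levels can be compared between genes, but the number of reads behind a value is unknown. Replicates of the members lay close together: the median coefficient of variation was 2.46% in C498, 2.63% in C498+LPS, 2.73% in LPS and 6.64% in NC, against 7.03% to 17.1% over all tested genes. These sets were not matched by level: the lowest tested member averaged 16.4 TPM, and the median tested gene was at 11.53 to 15.35 TPM in the samples.

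Although the subunits of a ring are used in equal number, their transcripts were not at equal levels. The highest mean TPM over all 8 samples belonged to the catalytic subunit Psmb6 (868 TPM), the PA28 subunit Psme2 (726 TPM), the lid subunit Psmd8 (552 TPM), the catalytic subunit Psmb5 (459 TPM) and the other PA28 subunit Psme1 (362 TPM). At the low end of the tested members stood the chaperones Psmd9 (16.4 TPM), Psmg2 (17.2 TPM), Psmg1 (20.9 TPM) and Psmd5 (25.4 TPM), with the inhibitor Psmf1 at 23.9 TPM. This order is that of the mean over the 4 groups, and neighbours in it changed places in single groups: in NC, the mean of Psmb5 (549.7 ± 62.9 TPM, SD, n = 2) lay above that of Psmd8 (544 ± 14.0 TPM), by less than their spread. The mean level of the highest member over that of the lowest was 2.38 among the ATPases (Psmc3 over Psmc6) and 1.53 among the other base subunits. It was 4.05 in the alpha ring (Psma7 over Psma2), 6.86 in the beta ring (Psmb6 over Psmb1) and 8.77 in the lid (Psmd8 over Psmd12). Among activators and inhibitor it was 30.4, where Psme2 and Psme1 stood far above the nuclear activator Psme3 (44.6 TPM) and Psme4 (26.2 TPM).

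**Figure D1:**
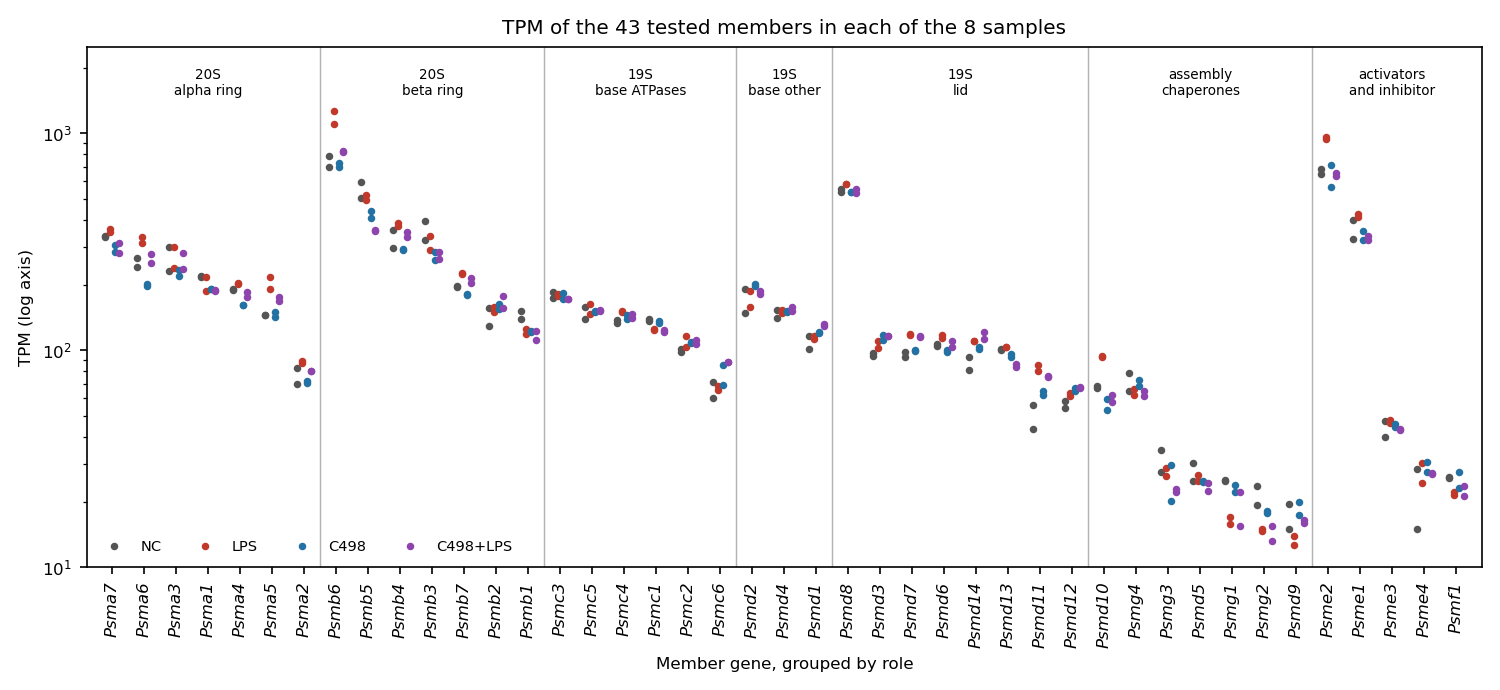
TPM of the 43 tested members on a log axis, with a point for each of the 8 samples coloured by group, in the order of the roles and within a role from the highest to the lowest mean. The means over the 8 samples ran from 16.4 TPM for Psmd9 to 868 TPM for Psmb6, and within most genes the 4 groups lay close together compared with the distance between genes.

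The promoters of the members that C498+LPS lowered against LPS (values below) are shown first, with that of Psme1, the partner of Psme2 in PA28, for comparison. They are the RefSeq windows on GRCm38.p6 from 250 bases before to 50 bases after the annotated start, in the direction of the gene, and 37 of the 45 members had such a window. Capitals mark letters that match the core of the antioxidant response element (TGACNNNGC), the CCAAT box (CCAAT), the core of the interferon-stimulated response element (GAAA, any 2 bases, GAAA) or the gamma-activated site (TTCNNNGAA), searched on both strands.
Psmb6, chr11:70525107-70525406, plus strand: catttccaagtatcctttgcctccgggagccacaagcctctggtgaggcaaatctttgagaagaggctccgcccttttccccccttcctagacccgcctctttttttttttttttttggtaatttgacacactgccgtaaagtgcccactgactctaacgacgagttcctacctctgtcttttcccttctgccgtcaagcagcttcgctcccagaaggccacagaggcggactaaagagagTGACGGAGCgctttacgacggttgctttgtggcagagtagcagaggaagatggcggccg
Psmb5, chr14:54617946-54618245, minus strand: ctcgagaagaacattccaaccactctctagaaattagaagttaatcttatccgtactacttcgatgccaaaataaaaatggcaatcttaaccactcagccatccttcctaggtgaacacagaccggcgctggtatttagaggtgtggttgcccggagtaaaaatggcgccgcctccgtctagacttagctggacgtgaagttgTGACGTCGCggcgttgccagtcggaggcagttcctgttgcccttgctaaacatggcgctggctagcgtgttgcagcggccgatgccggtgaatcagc
Psmd10, chrX:140956662-140956961, minus strand: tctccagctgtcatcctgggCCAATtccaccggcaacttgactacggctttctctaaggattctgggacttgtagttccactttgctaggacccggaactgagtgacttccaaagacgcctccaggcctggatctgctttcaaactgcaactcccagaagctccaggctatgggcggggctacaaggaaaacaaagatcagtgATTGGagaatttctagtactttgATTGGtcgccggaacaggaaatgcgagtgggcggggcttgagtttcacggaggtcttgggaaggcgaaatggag
Psme2, chr14:55591052-55591351, minus strand: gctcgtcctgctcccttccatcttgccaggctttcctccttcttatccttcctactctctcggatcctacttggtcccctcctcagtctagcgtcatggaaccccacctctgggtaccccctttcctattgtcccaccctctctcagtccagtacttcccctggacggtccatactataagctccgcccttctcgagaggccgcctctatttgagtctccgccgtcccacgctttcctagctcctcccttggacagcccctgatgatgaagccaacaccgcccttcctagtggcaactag
Psme1, chr14:55578244-55578543, plus strand: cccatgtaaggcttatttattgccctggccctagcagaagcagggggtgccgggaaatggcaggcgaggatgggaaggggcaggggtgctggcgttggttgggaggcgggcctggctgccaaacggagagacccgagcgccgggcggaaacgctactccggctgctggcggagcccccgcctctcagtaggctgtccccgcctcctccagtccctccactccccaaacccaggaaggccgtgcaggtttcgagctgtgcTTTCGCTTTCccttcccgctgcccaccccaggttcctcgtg

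Psmb6 held the letters of the antioxidant response element at position -9 from the annotated start and Psmb5 at position -47. Psmd10 held the CCAAT box at -230 and, on the other strand, at -47 and -24, and Psme1 held the interferon-stimulated core at 10 on the other strand. The window of Psme2 shown held none of the 4, which says only that these letters are not in it. In the windows shown no matches overlapped each other. Over all 40 windows of the members, the antioxidant core was in 15.0% against 12.4% of all 32851 windows, the CCAAT box in 32.5% against 37.4%, the interferon-stimulated core in 12.5% against 3.44%, and the gamma-activated site in 5.0% against 8.3%. The interferon-stimulated core was in 5 member windows, those of Psmb3, Psmd4, Psmd9, Psme1 and Psmg4, and none of these genes passed the test in any comparison. A match is a run of letters and not a measured site.

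LPS vs NC asks how the macrophages' proteasome transcripts responded to the bacterial stimulus. The changes were small, with a median log2 change of 0.094 and a range from -0.59 to 0.74. By limma, 8 of 43 rose at an adjusted p of at most 0.05, where 9.84% of all tested genes did, and 2 fell, where 19.8% did. None was a differentially expressed gene (DEG) by the study's thresholds, which add a fold change of at least 2, against 12.2% of the tested genes, and 12 members had an unadjusted p under 0.05, where 41.2% of the tested genes did. The median of all tested genes was -0.17 on this scale, and 31 members (72.1%) lay above 0 against 36.6% of the tested genes. In bulk samples, fewer cells of a type and less RNA per cell cannot be told apart.

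In the 20S core 3 of 14 members rose. Psmb6, the catalytic subunit with caspase-like activity, was at 701 and 790 TPM in NC, 1109.8 and 1268 in LPS, 699 and 729 in C498, and 820.5 and 825 in C498+LPS. Both LPS samples stood above all 6 others. The gene rose by 0.67 on the log2 scale (standard error 0.0975, limma adjusted p = 0.00269). The alpha subunit Psma5 was at 144.7 and 144.7 TPM in NC and 192 and 216 TPM in LPS, with a log2 change of 0.49 (standard error 0.091). Psma6, another alpha subunit, was at 242 and 266 TPM in NC and 313 and 332 TPM in LPS (log2 change 0.34). For both genes the LPS samples lay above every other sample. Psmb5, with chymotrypsin-like activity, and Psmb7, with trypsin-like activity, did not pass, at log2 changes of -0.11 and 0.20. Psmb7 was at 196 and 197 TPM in NC, 225 and 227 in LPS, 181 and 181 in C498, and 205 and 216 in C498+LPS, so that no group overlapped another.

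All 8 lid members were above 0 and higher in both LPS samples than in both NC samples. Over all members 21 were higher and 7 lower without overlap, where 19.3% and 42.2% of the tested genes were. Psmd11, a scaffold subunit of the lid, rose most of all members: it was at 43.6 and 55.8 TPM in NC, 80.1 and 85.5 in LPS, 61.9 and 65.0 in C498, and 74.9 and 76.1 in C498+LPS. NC was the lowest of the groups, and the log2 change was 0.74 (standard error 0.129, adjusted p = 0.00574 by limma). The deubiquitinating subunit Psmd14 was at 81.2 and 93.3 TPM in NC and 111 and 111 TPM in LPS (log2 change 0.34), and Psmd7, its partner, at 93.3 and 98.5 TPM against 117 and 119 TPM (log2 change 0.30). None of the 6 ATPases and none of the 3 other base subunits passed, and their log2 changes lay between -0.15 and 0.15.

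Among the chaperones the directions were mixed. Psmd10, which helps to assemble the base and is also known as gankyrin, rose from 67.0 and 68.1 TPM in NC to 92.9 and 93.9 TPM in LPS (log2 change 0.46, standard error 0.0997, adjusted p = 0.0132 by limma). Psmg1 and Psmg2, which pair to build the alpha ring, both fell. Psmg1 was at 25.1 and 25.3 TPM in NC and 15.8 and 17 TPM in LPS (log2 change -0.59, adjusted p = 0.0386), and Psmg2 at 19.4 and 23.6 TPM in NC and 14.6 and 15.0 TPM in LPS (log2 change -0.50, adjusted p = 0.0391). For these 3 genes no LPS sample overlapped NC, which adds no support to calls made on the same samples. The other 4 chaperones had log2 changes from -0.34 to -0.09 and did not pass.

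Of the activators Psme2 rose. It was at 648 and 683 TPM in NC, 944 and 957 in LPS, 568 and 715 in C498, and 638 and 656 in C498+LPS. The LPS samples stood apart above all the others, and the change was 0.51 (standard error 0.113, adjusted p = 0.0141 by limma). Psme1 was at 325 and 399 TPM in NC and 412 and 425 TPM in LPS, and its value of 0.22 did not pass (adjusted p = 0.196). The table also lists Psme2b, a close copy of Psme2, at 2.48 to 30.9 TPM, so some reads could have been divided between them.

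The call for Psmb6 passed under all 16 alternative settings of the test, those for Psma5 and Psmd11 under 15, Psmd10 under 14, Psme2 under 13, Psmd7 under 10, Psma6 under 7, Psmd14 under 6, and Psmg1 and Psmg2 under 5. The number that rose was 2 without LPS replicate 1, 3 without LPS replicate 2 and 5 without either C498 replicate, and no member fell without NC replicate 2 or any 1 of the LPS or C498 replicates, and 1 without either C498+LPS replicate. Centring each sample on its median gene gave 7 rising and 0 falling members with a median of 0.26, where 14.6% of the tested genes rose and 12% fell. In the main fit 8 members rose, where 9.84% of the tested genes did, so the excess of rising members was smaller with centring. With quantile normalization 7 rose and 0 fell, where 13.1% and 15.9% of the tested genes did. The share of risers among all called genes went from 33.3% to 54.9% with centring.

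**Figure D2:**
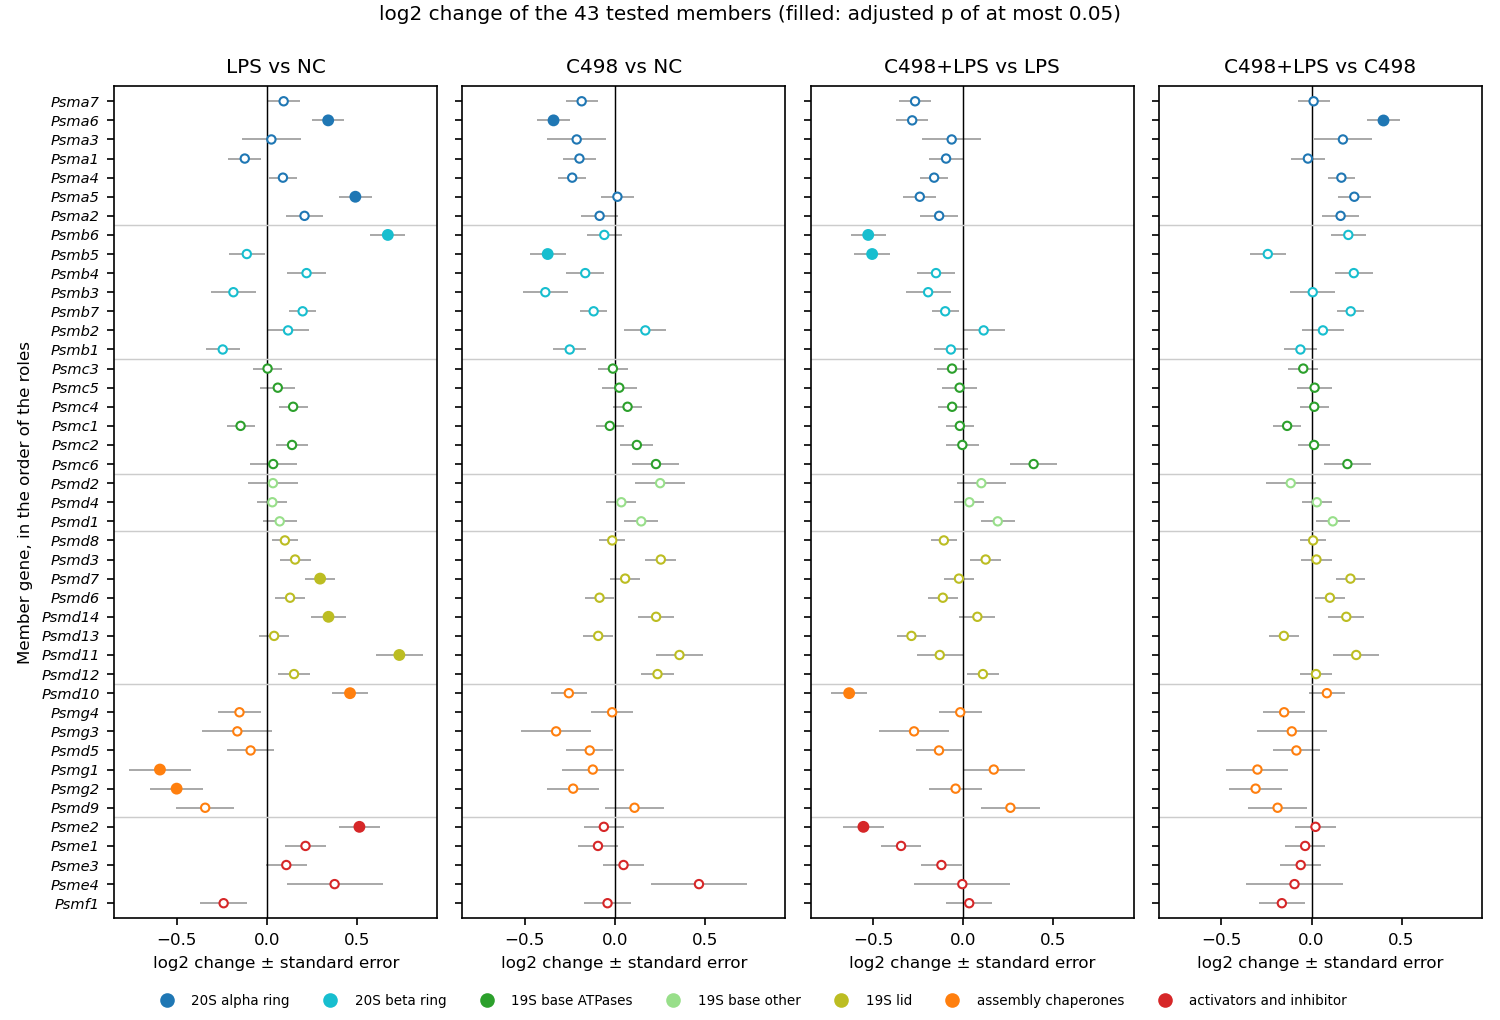
log2 change with its standard error (horizontal bars) of the 43 tested members in 4 comparisons, coloured by role, with filled points for an adjusted p of at most 0.05. In LPS vs NC 10 points are filled, and in C498 vs NC, C498+LPS vs LPS and C498+LPS vs C498 there are 2, 4 and 1, with none beyond 0.74 in size.

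C498 vs NC asks what the compound did without LPS. No member rose by limma, where 9.29% of the tested genes did, and 2 fell, where 6.19% did, with 9 members at an unadjusted p under 0.05 in either direction, where 32.0% were. None was a DEG, against 7.0% of the tested genes. The changes ran from -0.39 to 0.47 with a median of -0.042, and all tested genes had a median of 0.014. Those that fell were in the 20S core. Psmb5, the target site of clinical proteasome inhibitors, was at 505 and 594 TPM in NC, 493 and 522 in LPS, 407 and 439 in C498, and 356 and 358 in C498+LPS. All 4 samples with C498 lay below all 4 without it, and the log2 change in C498 vs NC was -0.37 (standard error 0.099, adjusted p = 0.0458). Psma6 was at 199 and 202 TPM in C498, below both NC samples, with a log2 change of -0.34 (adjusted p = 0.0454). Each passed under 5 of the 16 alternatives, and each missed the threshold without NC replicate 2 and without any 1 replicate of the other 3 groups. Over all alternatives the log2 change of Psmb5 lay between -0.50 and -0.26, and that of Psma6 between -0.46 and -0.27. Centring took the number of falling members to 0, where 9.94% of the tested genes fell in that setting. It took the members above 0 from 17 to 9, and the share of risers among all called genes from 60% to 48.3%.

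The 20S core and the 19S particle leaned apart in this comparison. Of the 14 core members 12 were below 0, with a median of -0.19, and 9 were lower in both C498 samples than in both NC samples, where 28.4% of the tested genes were. Of the 17 members of the 19S particle 12 were above 0, with a median of 0.070, and 9 were higher without overlap, where 29.3% of the tested genes were. Over all alternatives the core median lay between -0.31 and -0.15 and that of the 19S particle between -0.052 and 0.11, the lowest of each with centring. None of the 19S members passed the test on its own.

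The ratio of the summed TPM of the core to that of the 19S particle, which does not depend on the scaling of a sample, was 1.58 and 1.81 in NC, 1.75 and 1.87 in LPS, 1.39 and 1.44 in C498, and 1.45 and 1.55 in C498+LPS. Every sample with C498 was below every sample without it, by a small gap between the highest C498+LPS and the lowest NC sample. The core sum was 3719 and 4180 TPM in NC and 3395 and 3513 TPM in C498. The sum of the 19S particle was 2347 and 2307 TPM in NC, and 2440.2 and 2440.9 TPM in C498. These sums are given as values per sample with no test, since the members were chosen with earlier results of these data known. The share of all TPM in mitochondrially encoded genes, a sign of sample quality, moved with C498 as well: it was 1.80% to 2.39% in the 4 samples without the compound, 3.07% and 3.01% in C498, and 3.12% and 4.6% in C498+LPS, where replicate 2 stood apart. Its part in the shift between core and 19S particle was not tested.

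Gene length moved with this pattern. The core genes are shorter, with a median of 1162.5 bases against 1626 bases for the 19S particle. Across the 43 members the Spearman correlation of length with the C498 vs NC change was 0.515, and 0.28 across all tested genes, a description over genes of the same libraries. NC replicate 2 had lower TPM than NC replicate 1 for long genes, with a correlation of length and the replicate difference of -0.529 over the members and -0.514 over all tested genes. The sign was the same in the other groups. Over the members it was -0.37 in LPS, -0.32 in C498 and -0.39 in C498+LPS, and over all tested genes -0.31, -0.11 and -0.20. The longest member, the activator Psme4, was at 28.4 TPM in NC replicate 1 and 15.0 TPM in NC replicate 2. Among members of 1100 to 2000 bases the medians were -0.18 for 6 core genes (5 below 0) and 0.035 for 13 genes of the 19S particle (8 above 0). Without NC replicate 1 the medians of all core and 19S members were -0.23 and 0.095, and without NC replicate 2 they were -0.15 and 0.065.

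**Figure D3:**
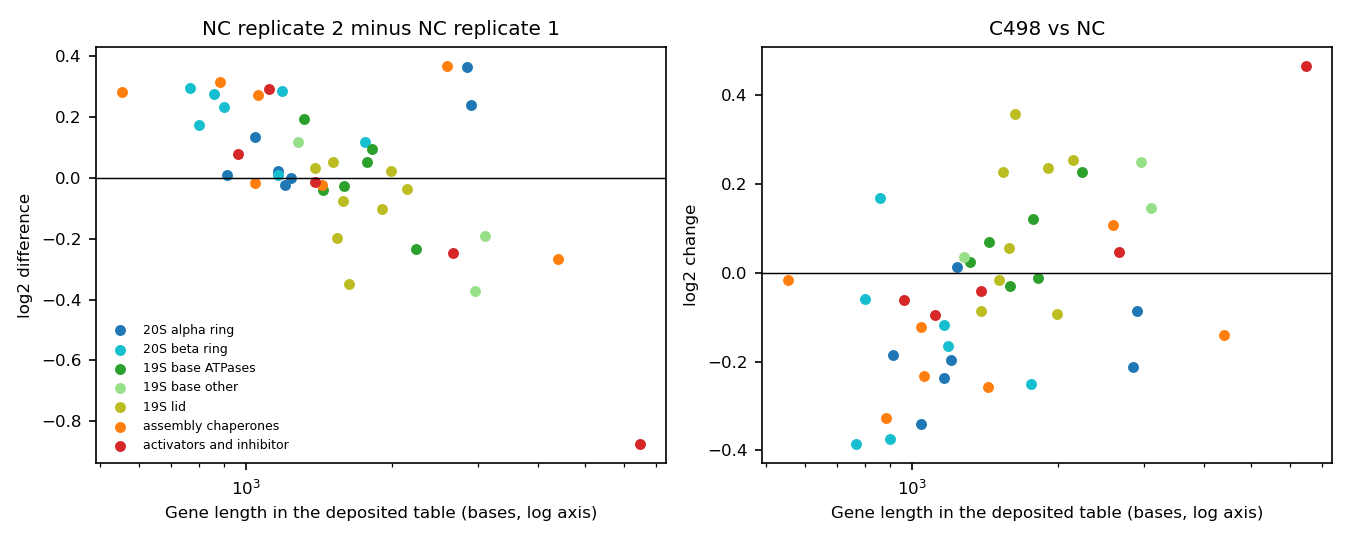
Length of each tested member in bases (log axis) against the log2 difference of NC replicate 2 minus NC replicate 1 (left) and against the log2 change in C498 vs NC (right), coloured by role. Long genes lay lower in NC replicate 2, with Psme4 lowest, and in C498 vs NC the core genes lay mostly below 0 and the longer 19S genes mostly above.

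Markers of other cells differed between the samples with and without C498. All 10 macrophage markers were above 1 TPM, and their summed level was 21216 to 21394 TPM in NC, 18575 to 19154 in LPS, 16506 to 16678 in C498 and 12813 to 14616 in C498+LPS. All 5 fibroblast markers were above 1 TPM, none at 0, with sums of 150 to 192 TPM in NC, 176 to 200.5 in LPS, 633 to 750 in C498 and 618 to 911 in C498+LPS. The 5 mesothelial markers (4 of them above 1 TPM, none at 0) summed to 4.66 to 5.58 TPM in NC, 5 to 5.36 in LPS, 14.8 to 20.9 in C498 and 15.5 to 24.5 in C498+LPS. The 7 neutrophil markers, of which 3 were above 1 TPM and 1 was at 0 in every sample, summed to 202 to 224 TPM in NC, 183 to 205 in LPS, 116 to 125 in C498 and 115 to 140 in C498+LPS. Markers of eosinophils, B cells, T cells and mast cells summed to at most 14.9 TPM each in any sample. The part of these cells in the members' changes was not tested.

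C498+LPS vs LPS asks how C498 altered the state under LPS. By limma, 4 of the 43 members fell, where 7.7% of the tested genes did, and none rose, where 9.08% did, with 10 members at an unadjusted p under 0.05, where 31.2% were. None was a DEG, against 7.57% of the tested genes. Out of 43 members, the 4 that fell were near the share of all tested genes that fell. They were Psmd10, Psme2, Psmb6 and Psmb5, and the median over all members was -0.069, against 0.0065 over the tested genes. Psmd10 was at 92.9 and 93.9 TPM in LPS and 57.5 and 62.4 TPM in C498+LPS, with C498 alone at 53.2 and 59.8 TPM. Its log2 change of -0.63 (standard error 0.0997, adjusted p = 0.00679) was the largest. Psme2 changed by -0.55 (standard error 0.113, adjusted p = 0.0171), Psmb6 by -0.53 (standard error 0.0975, adjusted p = 0.0122) and Psmb5 by -0.51 (standard error 0.0994, adjusted p = 0.0151). The 4 genes were lower without overlap of the samples, as were 30.9% of the tested genes. This adds no support to calls made on the same samples.

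Psmd10, Psme2 and Psmb6 also rose in LPS vs NC, but both comparisons use the LPS samples, so their values are not independent. With C498 present throughout, in C498+LPS vs C498, the log2 change was 0.085 for Psmd10, 0.022 for Psme2 and 0.20 for Psmb6, and none of the 3 passed. Psmb5 differs from them in that it did not pass in LPS vs NC, and it was at its lowest with C498 and LPS together.

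Of the 14 core members 13 were below 0 in C498+LPS vs LPS (median -0.16), and all 7 alpha subunits were, from -0.28 to -0.064, but 5 with quantile normalization. The members of the 19S particle had a median of -0.019, and 10 of 17 were below 0. With quantile normalization 9 of the 14 core members were below 0 (median -0.057), and the median of the 19S particle turned to 0.098 with 13 of 17 above 0. The Spearman correlation of length with this change was 0.411 across the 43 members and 0.0722 across all tested genes. Over all members 23 were lower and 6 higher without overlap of the samples, where 30.9% and 31.9% of the tested genes were. Psmc6, an ATPase, had the highest value at 0.39 (adjusted p = 0.0875). Psme1, the partner of Psme2, was at 412 and 425 TPM in LPS and 321 and 338 TPM in C498+LPS (log2 change -0.35, adjusted p = 0.0810), without overlap.

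The calls for Psmd10, Psmb6, Psme2 and Psmb5 passed under 13, 12, 11 and 11 of the 16 alternatives. Without 1 replicate of the groups compared, 0 members fell (without LPS replicate 2 or C498+LPS replicate 2) or 1 (without LPS replicate 1 or C498+LPS replicate 1), and 7 fell without either NC replicate. With centring 2 fell, where 10.7% of the tested genes did, against 4 members and 7.7% of the tested genes in the main fit. With quantile normalization 4 fell, where 10.2% of the tested genes did, and the median moved to 0.0079.

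**Figure D4:**
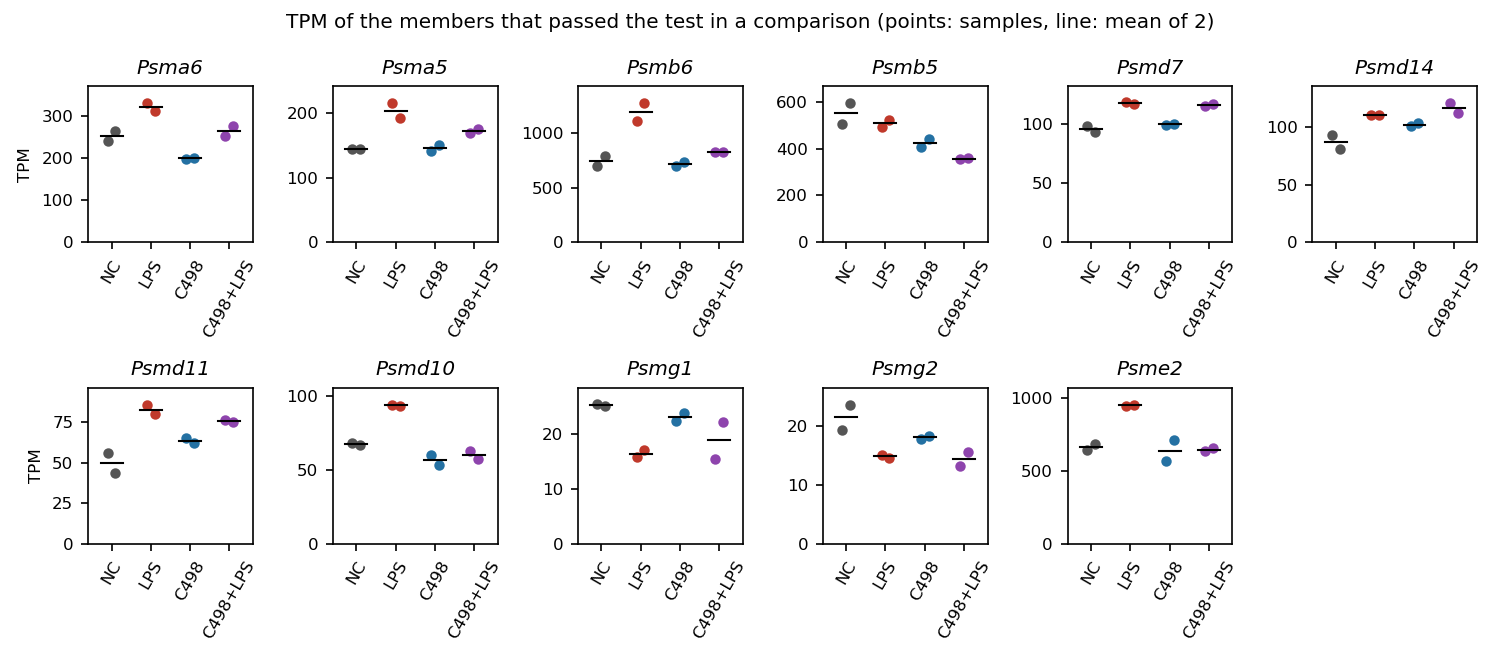
TPM of the 11 members that passed the test in a comparison, on axes that start at 0, with a point for each sample and a line at the mean of 2 for each group. Psmb6, Psme2 and Psmd10 were highest in LPS, Psmd10 was below NC in every sample with C498, Psmb5 was lower in every sample with C498, and Psmg1 and Psmg2 were lower in LPS than in NC.

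In C498+LPS vs C498, the response to LPS with C498 present, Psma6 alone rose by limma, where 4.51% of the tested genes did, and no member fell, where 11.7% did, with 5 members at an unadjusted p under 0.05, where 31.9% were. It was at 252 and 277 TPM in C498+LPS and 199 and 202 TPM in C498, so that it rose by 0.40 on the log2 scale (standard error 0.0904, adjusted p = 0.0268). None was a DEG, against 5.64% of the tested genes. The members had a median of 0.015 and all tested genes one of -0.18, and 15 members were higher and 12 lower without overlap, where 17.4% and 48.8% of the tested genes were. The call for Psma6 passed under 9 of the 16 alternatives and was lost without any 1 replicate of LPS, C498 or C498+LPS. With centring 4 members rose, where 7.94% of the tested genes did, and 40 members lay above 0 in place of 26. The share of risers among all called genes went from 27.8% to 59.9%.

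The interaction of C498 and LPS asks directly whether the response to LPS differed with C498. No member passed by limma, where 0.0738% of the tested genes passed above 0 and 0.418% below, and 4 members had an unadjusted p under 0.05, where 11.1% of the tested genes did. The most negative values were those of Psme2 (-0.49, standard error 0.160, adjusted p = 0.332), Psmd11 (-0.49, standard error 0.182, adjusted p = 0.393) and Psmb6 (-0.47, standard error 0.138, adjusted p = 0.287). All 8 lid members were below 0, from -0.49 to -0.027, but 7 with centring and 6 with quantile normalization, and 47.1% of the tested genes were above 0. None was a DEG, against 0.468% of the tested genes.

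The catalytic subunits have an immunoproteasome counterpart, and the share of each pair's TPM that the counterpart took was compared. Psmb8 made up 51.1% and 51.8% of Psmb5 and Psmb8 in NC, 54.2% and 57.3% in LPS, 51.1% and 53.8% in C498, and 54.5% and 55.3% in C498+LPS. Psmb9 made up 15.0% and 15.1% of Psmb6 and Psmb9 in NC and 10.7% and 12.7% in LPS, a lower share, with Psmb6 itself higher. In C498 it was 13.8% and 14.2%, and in C498+LPS 11.5% and 12%. Psmb10 took 73.4% and 74.1% of Psmb7 and Psmb10 in NC, 75.6% and 76.4% in LPS, 70.4% and 71.7% in C498, and 64.7% and 65.9% in C498+LPS, where it was lowest. In LPS vs NC Psmb10 rose by 0.37 on the log2 scale (adjusted p = 0.0174, limma), and Psmb8 at 0.14 and Psmb9 at 0.24 did not pass. In C498+LPS vs LPS, which uses the same LPS samples, all 3 counterparts fell, Psmb10 with a log2 change of -0.85 (adjusted p = 0.00149, limma), Psmb8 with -0.55 (adjusted p = 0.00826) and Psmb9 with -0.51 (adjusted p = 0.0152). Of the constitutive partners, Psmb5 and Psmb6 fell and Psmb7 did not pass at -0.10. Without LPS, in C498 vs NC, the counterparts were below 0 as well, Psmb10 at -0.32, Psmb8 at -0.31 and Psmb9 at -0.18, and none passed. All 3 were lower in both C498 samples than in both NC samples, where 28.4% of the tested genes were.

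**Figure D5:**
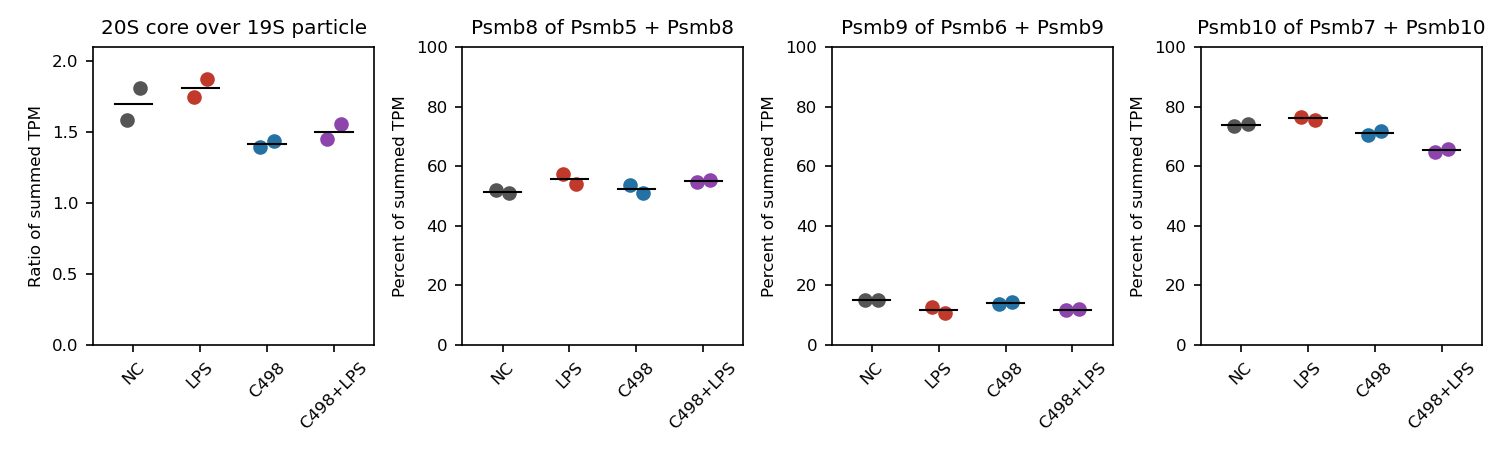
Left, the summed TPM of the 20S core over that of the 19S particle in each sample, and right, the percent of each catalytic pair's TPM taken by the immunoproteasome subunit, with a line at the mean of 2 samples. The core ratio was at most 1.55 in the 4 samples with C498 and at least 1.58 in the other 4, and the share of Psmb10 was lowest in C498+LPS.

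Genes around the proteasome were described from lists drawn up by function. Of 10 other proteasome parts tested, Txnl1, a thioredoxin-like protein bound to the 19S particle, rose in LPS vs NC (0.69), C498 vs NC (0.39) and C498+LPS vs C498 (0.56). Zfand5, an activator of the 26S proteasome, was at 63.1 ± 8.25 TPM (SD, n = 2 here and in each group) in NC, 111 ± 9.59 in C498, 68.4 ± 0.523 in LPS and 98.9 ± 2.74 in C498+LPS, and rose in both comparisons of C498. Uchl5, a deubiquitinase of the 19S particle, fell in LPS vs NC (-0.66). The other 7 passed in none of the 4 comparisons, among them the maturation factor Pomp.

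Of 7 regulators of proteasome genes, Nfe2l1, the transcription factor that restores proteasome levels after inhibition, was at 86.9 and 112 TPM in NC, 143 and 161 in LPS, 96.1 and 99.5 in C498, and 105 and 114 in C498+LPS. Both LPS samples were above all the others, and it rose in LPS vs NC (0.62, adjusted p = 0.0141 by limma). In C498+LPS vs LPS its change was -0.47 (adjusted p = 0.0566) and in C498 vs NC -0.013. Nfe2l2, or NRF2, passed in no comparison. Its relative Nfe2l3 rose in C498 vs NC (log2 change 1.05) and in C498+LPS vs LPS (1.13), from 0.380 ± 0.212 TPM in NC to 1.86 ± 0.424 TPM in C498 (SD, n = 2). It reached the filter on mean TPM only through the groups with C498, so that a call as a riser there was favoured by the filter. Syvn1, a ubiquitin ligase of the endoplasmic reticulum, rose in the same comparisons (0.65 and 0.50).

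Among genes of ubiquitin supply and delivery, the polyubiquitin gene Ubb (log2 change 0.59), the autophagy receptor Sqstm1 (1.06) and the shuttle factor Rad23b (0.52) rose in C498 vs NC. In LPS vs NC Sqstm1 rose (1.48) and Faf1, a ubiquitin-binding cofactor, fell (-0.80). In C498+LPS vs LPS Ubb rose (0.37). Sqstm1 was the gene of these lists that passed in the interaction.

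Some members share exons with a neighbour on the other strand in the GENCODE M21 annotation, and whether the counting used strand is not stated. Psmd9 shares 25.5% of its exon bases, Psmb7 11.8% with Nek6, Psmd13 10.1% with Sirt3 and Psmc3 8.2% with Slc39a13, so reads of these genes may include the neighbour's. Of the members called, Psma5 shares 4.5% and Psmb5 holds a microRNA gene in 12.1% of its exon bases, and both of these neighbours were listed at 0. The pseudogene copies left out had mean levels of at most 0.341 TPM.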

How the data were processed

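The members and lists were chosen with earlier results of these data known. Per the labels and the study's methods, the authors used fastp on the reads, HISAT2 for alignment and StringTie for assembly, and deposited TPM values from RSEM per gene, with 2 decimals, beside pooled group means, which were not used. TPM keeps no depth, so the reads behind a value are unknown, and the genome build and annotation are not given in the sources used here. Gene coordinates come from GENCODE M21 (GRCm38) and promoters from RefSeq (GRCm38.p6). All 8 samples were used. Genes averaging 1 TPM or more (12189) were compared on log2(TPM + 1), which understates the change of low genes, with limma 3.58.1 in R 4.3.3, in 1 fit of all groups with a variance trend, and p was adjusted by the Benjamini-Hochberg method over these genes. The count test of the authors could not be run on TPM. The steps were tested on simulated data. Named were all members called in a comparison (up to 10 in each direction), the constitutive catalytic subunits, the 5 highest and lowest members, and called genes of the other lists; other members were named after their values were seen. Some called genes of the ubiquitin list are not reported here. Tried in turn were another pseudocount (0.1), no filter, a minimum of 5 TPM, centring, quantile normalization, no variance trend, the replicate number as a block, only the groups compared, and each sample left out. Summaries used numpy 2.4.6, pandas 2.3.3 and scipy 1.17.1, and figures matplotlib 3.10.9.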

Additional observations from a re-analysis of the deposited data

Results flagged for a closer look

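Sqstm1, the ubiquitin receptor of selective autophagy, was the gene of the lists around the proteasome whose response to LPS differed with C498 by a test of the difference itself. The interaction was -1.01 on the log2 scale (standard error 0.119, limma adjusted p = 0.0243), from 1.48 without C498 and 0.47 with it. The mean level with its SD over 2 samples was 870 ± 42.5 TPM in NC, 1814 ± 49.5 in C498, 2432 ± 28.1 in LPS and 2516 ± 176 in C498+LPS. No member of the proteasome passed that test.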

How the results depend on the processing

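Counts of members past an adjusted p of 0.05 moved by over 1.5 times in several settings. In LPS vs NC 5 members rose without a variance trend and 4 with only the groups compared, and with 1 sample left out 2 to 10. None fell there with no filter, centring, quantile normalization or only the groups compared, 1 fell without a variance trend, and 0 to 2 with 1 sample left out. In C498 vs NC 2 rose with quantile normalization and 0 to 4 with 1 sample left out, and none fell with no filter, centring, no variance trend or only the groups compared, and 0 to 4 with 1 sample left out. For C498+LPS vs LPS, 2 rose with quantile normalization and 1 with only the groups compared, and 2 fell with centring and 0 to 7 with 1 sample left out. In C498+LPS vs C498 4 rose with centring, 0 without a variance trend and 0 to 2 with 1 sample left out, and 1 fell with quantile normalization. With centring and quantile normalization, the share of tested genes that rose was 14.6% and 13.1% in LPS vs NC, with 12% and 15.9% falling. For C498 vs NC, 9.29% and 10.6% rose, and 9.94% and 10.1% fell. For C498+LPS vs LPS, 8.84% and 9.7% rose, and 10.7% and 10.2% fell. For C498+LPS vs C498, 7.94% and 7.5% rose, and 5.32% and 9.26% fell. Shares with 1 sample left out are not given, so those counts do not separate the members from the whole fit. The cause of the moves in the counts was not tested. The members' median log2 change moved by more than the spread of the samples' medians with centring and with quantile normalization. These gave 0.26 and 0.036 in LPS vs NC, -0.16 and -0.0077 in C498 vs NC, -0.0027 and 0.049 in the interaction, 0.23 and 0.078 in C498+LPS vs C498, and -0.15 and 0.0079 in C498+LPS vs LPS. With 1 sample left out the medians lay between -0.075 and 0.011 in C498 vs NC, between -0.104 and -0.059 in C498+LPS vs LPS, and between -0.060 and -0.012 in the interaction. The summed TPM of LPS over NC, divided by the median tested gene in place of none, was 1.24 in the alpha ring, 1.31 in the beta ring, 1.15 in the ATPases, 1.16 in the other base subunits, 1.28 in the lid, 1.09 in the chaperones and 1.47 in activators and inhibitor. By the geometric mean it was 1.07 in the beta ring, 1.19 in the lid, 0.864 in the chaperones and 1.15 in activators and inhibitor. With 1 NC or LPS sample left out, an alternative chosen after seeing the data like the split by length and the left-out samples of the catalytic shares, it was 1.095 to 1.27 in the beta ring, 1.01 to 1.04 in the ATPases, 0.975 to 1.09 in the other base subunits and 0.934 to 1.02 in the chaperones. The replicate numbers do not pair the samples by the labels, and deviations of same-numbered samples correlated at 0.0397 to 0.168 over the 6 pairs of groups. With the replicate number as a block 1 member rose and 5 fell in C498+LPS vs LPS, and the other counts stayed within 1.5 times. The 17 calls of single members kept their sign in all alternatives. Depth is unknown, so no limit of detection can be given.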
